A study of Mus musculus with 6 samples.

Results

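Branched-chain amino acid catabolism is the mitochondrial breakdown of leucine, isoleucine and valine, and 10 genes of it were examined in mouse duodenal epithelium with and without *Esrra*. The genes were taken by symbol from the expression table as enzymes of this pathway or its direct regulator. The rule uses no measured value, though the genes were chosen with earlier results of these data known. They are *Bcat2*, *Bckdha*, *Bckdhb*, *Dbt*, *Bckdk*, *Ivd*, *Mccc1*, *Mccc2*, *Hibadh* and *Aldh6a1*, 10 of 22611 genes in the table. The groups were 3 WT mice and 3 littermates with a germline deletion of *Esrra*, labelled ESRRAKO and written here as *Esrra*-/-. All 6 mice were fed a high-fat diet for some weeks, and RNA came from whole duodenal epithelium released with EDTA, with 1 library per mouse. The deletion is present in every tissue, mice of both sexes were used, and neither the sex nor the age of a given mouse is stated in the sources used here. ESRRA, estrogen-related receptor α, is a nuclear receptor that regulates mitochondrial genes, and the comparison asks which genes of the epithelium differ in its absence.

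In this pathway, BCAT2 moves the amino group of the 3 amino acids to α-ketoglutarate and leaves branched-chain ketoacids. The branched-chain ketoacid dehydrogenase complex then oxidises the ketoacids irreversibly to acyl-CoA. Beyond that step the 3 carbon skeletons are handled separately, leucine towards acetyl-CoA and acetoacetate, valine towards propionyl-CoA, and isoleucine towards both acetyl-CoA and propionyl-CoA. The complex resembles pyruvate dehydrogenase in build, with a decarboxylase (E1), a lipoate-bearing core (E2) and the shared E3 subunit. Each complex is held in check by its own kinase or kinases.

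The level of *Esrra* itself was 49.4, 73.5 and 104 FPKM in WT mice against 10.4, 9.42 and 8.72 FPKM in *Esrra*-/- mice, a log2 fold change (*Esrra*-/- over WT throughout) of −2.92 with a limma adjusted p of 0.0215. FPKM divides the fragments of a gene by its transcript length and by the mapped fragments of the library, so levels of different genes can be compared on it. Epithelial markers summed to between 3000 and 4290 FPKM over the 6 libraries, and 8 mesenchymal and muscle markers summed to between 2.24 and 5.66 FPKM. Of the duodenal markers, *Gata4* had 71.2 to 97.9 FPKM, while *Pdx1* (0.145 to 1.31 FPKM) and *Cybrd1* (0.411 to 0.900 FPKM) were near 0, and *Slc40a1* had 1.26 to 2.46 FPKM in WT and 0.340 to 1.52 FPKM in *Esrra*-/- and was not called. Villus enterocyte markers overlapped between genotypes, at 39700 to 64300 FPKM in WT and 49300 to 68000 FPKM in *Esrra*-/-. The summed level of 5 Paneth cell markers did not overlap, at 7450 to 15900 FPKM in WT and 1550 to 6840 FPKM in *Esrra*-/-, and 3 of the 5 were called lower. In bulk tissue, fewer cells of a type and less RNA per cell cannot be told apart. Crypt markers summed to 152 to 276 FPKM in WT and 63.1 to 202 FPKM in *Esrra*-/-, and 1 of 7, *Smoc2*, was called lower. Each of the 7 had a negative log2 fold change, from −0.46 for *Axin2* to −1.0 for *Lgr5*. Transcripts of Y-linked genes were at a trace in WT replicate 3 and *Esrra*-/- replicate 3 and present in the other 4 libraries.

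All 10 members had a mean above 1 FPKM and were tested among 10596 genes. In WT they ran from *Bckdk* at 25.0 ± 2.73 FPKM (SD, n = 3) down to *Bckdhb* at 3.42 ± 1.04 FPKM. By mean the order in WT was *Bckdk*, *Hibadh*, *Bcat2*, *Bckdha*, *Mccc2*, *Aldh6a1*, *Mccc1*, *Dbt*, *Ivd* and *Bckdhb*. Neighbours in this order overlapped in their range over the 3 mice, except *Bckdha* and *Mccc2*, which were separate. The WT mean of *Bckdk* stood at the 72.5th percentile of the genes tested and that of *Bckdhb* at the 22.2nd. In *Esrra*-/- the order was the same but for *Bcat2* and *Hibadh*, which changed places and overlapped in both groups.

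**Figure D1:**
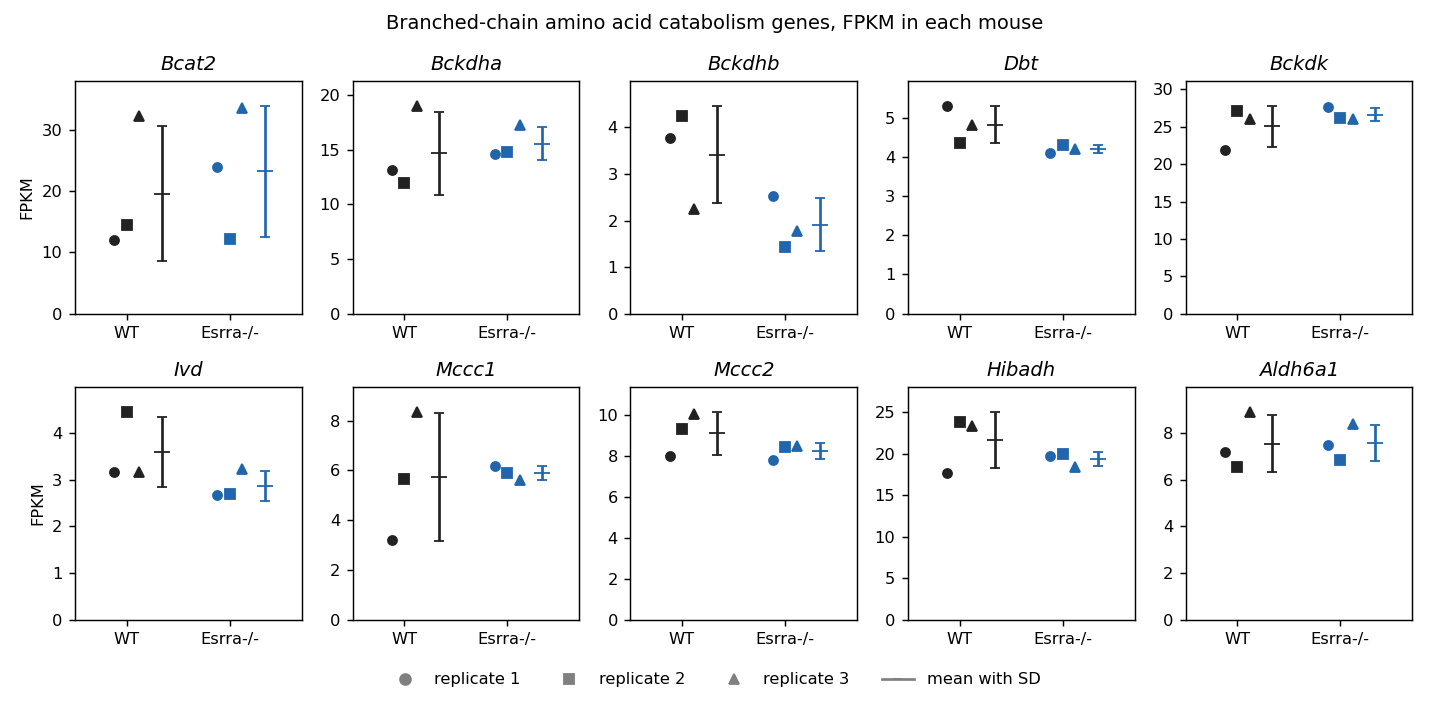
FPKM of the 10 genes in each of the 3 WT (black) and 3 *Esrra*-/- (blue) mice, with marker shape for the replicate number and a bar for the mean with its SD; each vertical axis starts at 0. *Bckdhb* is the gene with the largest difference between group means relative to WT (3.42 against 1.91 FPKM), and *Bcat2* the one with the widest spread within groups.

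Calls required both an unadjusted limma p under 0.05 and a log2 fold change below −0.58 (lower) or above 0.58 (higher). Of the 10 members, 1 was called lower, *Bckdhb*, where 3.28% of all genes tested were called lower. None of the members was called higher, where 1.35% of all genes were. No member had a limma adjusted p under 0.05, as 0.0378% of all genes did, and the smallest was 0.422. With the fold limit left aside, 1 member had an unadjusted p under 0.05 and a negative fold change, where 6.49% of all genes did. The log2 fold changes were negative for 5 of the 10 members, against 45.7% of all genes, and their median was −0.06 where that of all genes was 0.03. For 1 member, *Dbt*, every *Esrra*-/- value was below every WT value, which held for 9.14% of all genes.

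**Figure D2:**
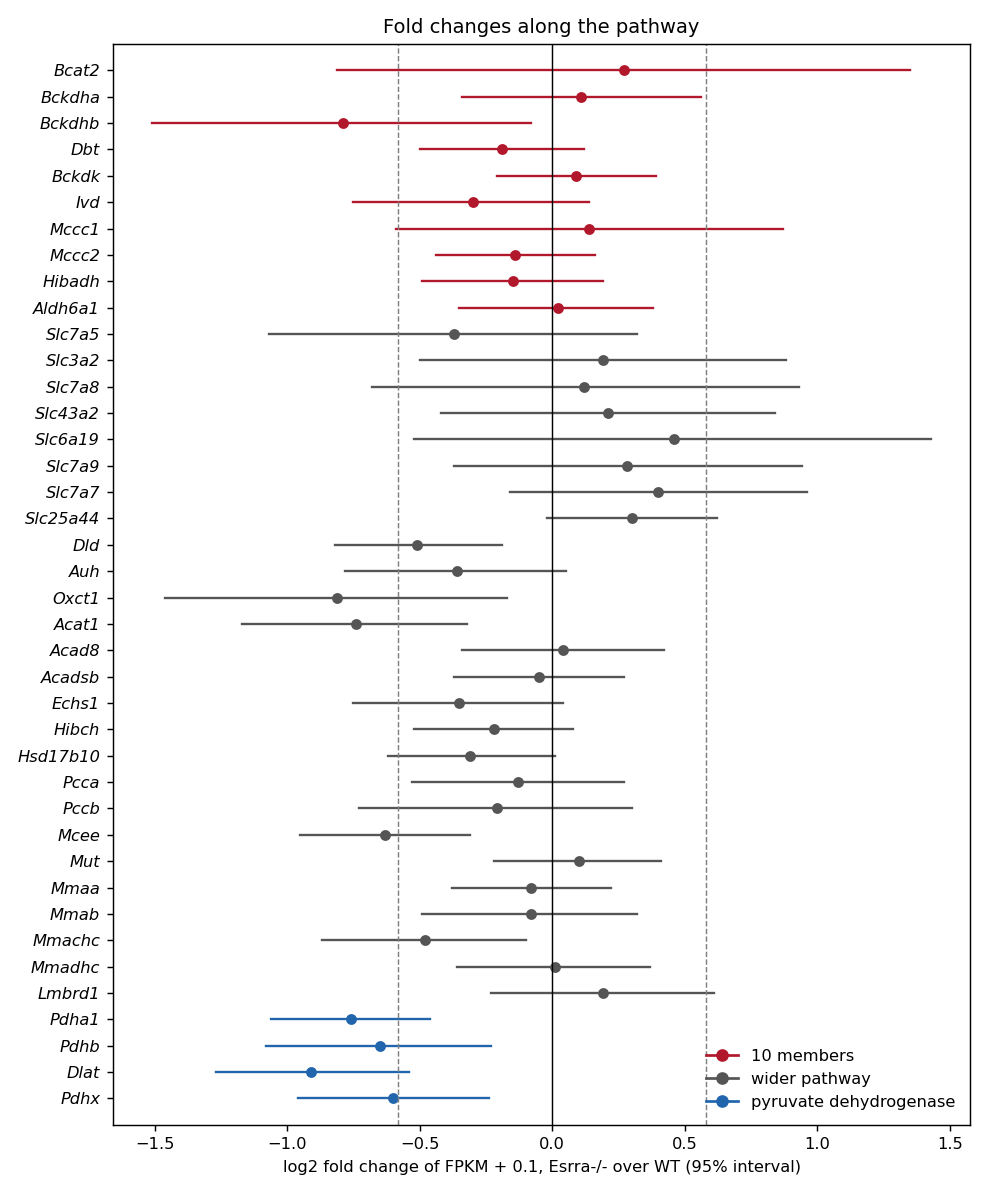
Log2 fold change, *Esrra*-/- over WT, with its 95% interval from limma for the 10 members (red), the 26 tested genes of the wider pathway (grey) and 4 subunits of pyruvate dehydrogenase (blue); dashed lines mark 0.58 in either direction. The intervals of 9 of the 10 members include 0, that of *Bckdhb* runs from −1.51 to −0.08, and the 4 pyruvate dehydrogenase intervals lie below 0.

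*Bcat2* (mm9 chromosome 7, 52825523 to 52845080, plus strand) encodes the mitochondrial branched-chain aminotransferase that opens the pathway. Its level was 11.99, 14.4 and 32.1 FPKM in the WT mice, in the order of their replicate numbers as below, against 23.9, 12.2 and 33.4 FPKM in the *Esrra*-/- mice. The libraries with the highest value were WT replicate 3 and *Esrra*-/- replicate 3, and the genotypes overlapped over nearly their whole range. The fold change on the log2 scale was 0.27, with a 95% interval from −0.81 to 1.35 and a limma adjusted p of 0.859. The interval is wide enough to hold a change of the size called elsewhere in either direction. The libraries with Y-linked transcripts at a trace were higher for *Bcat2* within each genotype, by 1.28 on the log2 scale in WT and by 0.97 in *Esrra*-/-, the largest such gap in both genotypes among the 10 members. Each of these gaps rests on 1 library and was not tested. The exons of *Bcat2* share 622 bases with the antisense gene 0610005C13Rik, and the library kit does not mark strand.

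The branched-chain ketoacid dehydrogenase complex is made of the E1 subunits BCKDHA and BCKDHB, the E2 core DBT, which carries lipoate, and the E3 subunit DLD. *Bckdha* (chromosome 7, 26414871 to 26443780, minus strand) had 13.1, 11.9 and 19.0 FPKM in WT and 14.6, 14.7 and 17.3 FPKM in *Esrra*-/-. The *Esrra*-/- values lay inside the WT range, with a log2 fold change of 0.11 (95% interval −0.34 to 0.56). *Bckdhb* (chromosome 9, 83818757 to 84017846, plus strand) had 3.77, 4.24 and 2.24 FPKM in WT and 2.54, 1.43 and 1.78 FPKM in *Esrra*-/-. It was lower by the threshold, at 57.7% of WT, with a log2 fold change of −0.79 ± 0.30 (standard error; unadjusted p = 0.0333, limma adjusted p = 0.422). The genotypes nevertheless overlapped, because WT replicate 3 lay below *Esrra*-/- replicate 1, and the two-sided exact permutation p was 0.2. The unadjusted p rose above the threshold without WT replicate 1 (log2 fold change −0.70), WT replicate 2 (−0.62), *Esrra*-/- replicate 2 (−0.61) or *Esrra*-/- replicate 3 (−0.76), so that no member was called. Without WT replicate 3 the log2 fold change was −1.06, and in the 4 libraries with Y-linked transcripts it was −1.03. The summed Paneth cell markers given above separated the genotypes. The summed crypt markers overlapped between them, though each crypt marker had a negative fold change. The part of either cell type in the value of *Bckdhb* was not tested.

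*Dbt* (chromosome 3, 116215988 to 116252894, plus strand) had 5.30, 4.36 and 4.82 FPKM in WT and 4.11, 4.30 and 4.21 FPKM in *Esrra*-/-. Each *Esrra*-/- value lay below each WT value, with a two-sided exact permutation p of 0.1, the smallest that 3 mice against 3 allow. The gap was small, with a log2 fold change of −0.19 (95% interval −0.50 to 0.12), and it did not pass the threshold. *Bckdk* (chromosome 7, 135047596 to 135053178, plus strand), whose product phosphorylates E1 and thereby inactivates the complex, had 22.0, 27.1 and 26.1 FPKM in WT and 27.6, 26.2 and 26.0 FPKM in *Esrra*-/-. Its log2 fold change was 0.09 with one of the narrowest intervals of the members, from −0.21 to 0.39. A change of *Bckdk* as large as the threshold of 0.58 lies outside this interval in both directions.

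The sequence before the start sites of the E1 subunits was read because ESRRA binds the letters TCAAGGTCA and shorter forms of them in DNA. The 150 bases before an annotated start are shown 5′ to 3′ on the strand of the gene, from mm9, with capitals for the core AGGTCA. They are given for *Bckdha* (chr7:26443781-26443930), which was not called, and *Bckdhb* (chr9:83818607-83818756), which was.
Bckdha: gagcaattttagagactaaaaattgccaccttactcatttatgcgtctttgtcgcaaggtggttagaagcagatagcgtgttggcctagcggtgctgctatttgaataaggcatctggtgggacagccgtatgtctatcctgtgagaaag
Bckdhb: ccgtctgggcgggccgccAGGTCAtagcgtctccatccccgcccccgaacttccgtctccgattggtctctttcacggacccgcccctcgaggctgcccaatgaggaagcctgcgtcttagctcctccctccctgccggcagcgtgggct

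Windows of 300 bases, from 250 before to 50 after each start of a protein-coding transcript, were searched on both strands with exact letters. None of the 22 windows of the 10 members held AAGGTCA, which occurred in 3.52% of the 26030 windows of genes tested. The longer TCAAGGTCA, which contains AAGGTCA, was in none of the 22 windows and in 0.342% of all windows. The core AGGTCA, added to the search after the sequences had been read, was in 2 of the 22 windows (9.09%), 1 of *Bckdhb* and 1 of *Aldh6a1*, and in 13% of all windows. In *Bckdhb* it began 132 bases before the start shown, and the window of its other annotated start, at 84014405, did not hold it. These counts describe letters in a short window only, and distal sequence was not searched.

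Ratios within a library compare subunits without the scaling of the library. *Bckdhb* was at 0.288, 0.356 and 0.118 times *Bckdha* in WT and at 0.173, 0.0968 and 0.103 times in *Esrra*-/-. WT replicate 3 stood with the *Esrra*-/- libraries in this ratio, and the genotypes overlapped (two-sided exact permutation p = 0.2, adjusted over 7 pairs 0.7). *Dbt* stood at 0.342 ± 0.0783 times *Bckdha* in WT and 0.272 ± 0.0253 times in *Esrra*-/- (SD, n = 3 each, exact permutation p = 0.3). *Bckdk* was at 1.78 ± 0.460 times *Bckdha* in WT and 1.72 ± 0.199 times in *Esrra*-/- (SD, n = 3 each, exact permutation p = 1.0). The adjusted exact p ranged from 0.7 to 1.0 over the 7 pairs, the genotypes overlapped in each of them, and 0.1 is the lowest raw p that the design can give.

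**Figure D3:**
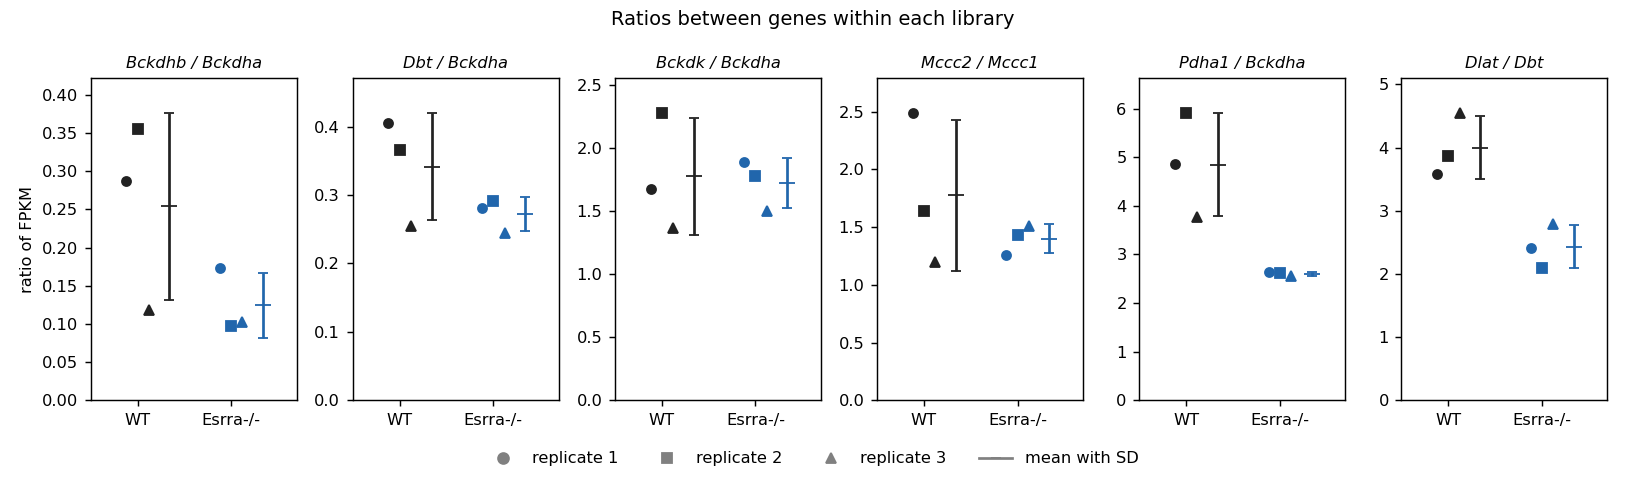
Ratio of the FPKM of 2 genes within each library for 3 WT (black) and 3 *Esrra*-/- (blue) mice, with the mean and SD beside the points and each axis from 0. The first 4 ratios, between members, overlap between the genotypes, and *Pdha1* to *Bckdha* and *Dlat* to *Dbt* do not.

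In the leucine branch, *Ivd* encodes isovaleryl-CoA dehydrogenase, and *Mccc1* and *Mccc2* encode the biotin-bearing and the carboxyltransferase subunits of methylcrotonyl-CoA carboxylase. *Ivd* (chromosome 2, 118687690 to 118708645, plus strand) had 3.16, 4.45 and 3.17 FPKM in WT and 2.67, 2.69 and 3.23 FPKM in *Esrra*-/-. WT replicate 2 stood above the other 5 libraries, and the log2 fold change was −0.30 (95% interval −0.75 to 0.14). *Mccc1* (chromosome 3, 35858234 to 35899600, minus strand) ran from 3.20 through 5.67 to 8.34 FPKM in WT and lay at 6.18, 5.89 and 5.60 FPKM in *Esrra*-/-. All 3 *Esrra*-/- values were therefore inside the WT range, with a log2 fold change of 0.14 (95% interval −0.59 to 0.87). *Mccc2* (chromosome 13, 100718488 to 100785594, minus strand) had 7.97, 9.29 and 10.0 FPKM in WT and 7.78, 8.41 and 8.46 FPKM in *Esrra*-/-, a log2 fold change of −0.14 (95% interval −0.44 to 0.16). The ratio of *Mccc2* to *Mccc1* was 2.49, 1.64 and 1.20 in WT and 1.26, 1.43 and 1.51 in *Esrra*-/-, so the subunits of 1 enzyme differed more in their ratio among WT mice than among *Esrra*-/- mice.

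In the valine branch, HIBADH oxidises 3-hydroxyisobutyrate and ALDH6A1 oxidises methylmalonate semialdehyde to propionyl-CoA. *Hibadh* (chromosome 6, 52496222 to 52590383, minus strand) had 17.7, 23.8 and 23.4 FPKM in WT and 19.7, 19.9 and 18.4 FPKM in *Esrra*-/-, a log2 fold change of −0.15 (95% interval −0.49 to 0.19). *Aldh6a1* (chromosome 12, 85771673 to 85791900, minus strand) had 7.18, 6.54 and 8.90 FPKM in WT and 7.50, 6.85 and 8.41 FPKM in *Esrra*-/-. Its log2 fold change of 0.02 was the nearest to 0 of the members (95% interval −0.35 to 0.38). For both genes the *Esrra*-/- values lay inside the WT range.

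The members varied more among WT than among *Esrra*-/- mice. The coefficient of variation of FPKM was higher in WT for 10 of 10 members, with a median of 18.4% in WT and 7.32% in *Esrra*-/-. Over all genes tested it was higher in WT for 51.6%, with medians of 15.1% and 14.7%. A higher coefficient in WT was also found for 62 of 73 oxidative phosphorylation genes and 7 of 9 acyl-CoA dehydrogenases, and for 6 of 15 TCA cycle genes, so it was not particular to the members. The gap was widest for *Mccc1* (44.8% against 4.95%) and narrowest for *Bckdhb* (30.5% against 29.7%). The members share the same 6 libraries, so this is a description of these mice with no test.

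The wider pathway was described from a list of 29 other genes, of which 26 were tested. Of these, 3 were called lower, *Acat1*, *Oxct1* and *Mcee*, and none was called higher, where 3.28% of all genes were called lower and 1.35% higher. The median log2 fold change of the 26 was −0.08, close to that of the 10 members. By list it was 0.21 for 7 amino acid transporters of the cell surface and −0.74 for 3 other leucine branch genes. For 5 other valine and isoleucine genes it was −0.22, and for 9 genes of the propionyl-CoA steps and their cofactor −0.08. *Bcat1*, the cytosolic aminotransferase, was listed at 0 in 5 libraries and had 0.00710 FPKM in *Esrra*-/- replicate 1. *Ppm1k*, the phosphatase that reactivates the ketoacid dehydrogenase, was below the level tested, with 0.745, 0.853 and 0.700 FPKM in WT and 0.606, 0.960 and 0.589 FPKM in *Esrra*-/-. *Bckdk* was therefore listed at a far higher level than its opposing phosphatase in every library. *Slc25a44*, a mitochondrial carrier of branched-chain amino acids, had 20.4 to 24.4 FPKM in WT and 25.4 to 31.2 FPKM in *Esrra*-/-, with a log2 fold change of 0.30 (95% interval −0.02 to 0.62), short of the threshold. Every *Esrra*-/- value of *Slc25a44* was above every WT value, which held for 8.45% of all genes. For 5 of the 26 genes every *Esrra*-/- value lay below every WT value, which held for 9.14% of all genes.

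Uptake at the cell surface was represented by 8 transporters of neutral and cationic amino acids, of which 7 were tested and none was called. *Slc7a7*, a basolateral exchanger subunit, had a log2 fold change of 0.40 (95% interval −0.16 to 0.96), and *Slc7a5*, a subunit of a leucine exchanger, had one of −0.37 (95% interval −1.07 to 0.32). Without WT replicate 3, *Slc7a7* was called higher (0.59) and *Slc7a5* lower (−0.64), and without *Esrra*-/- replicate 2 the apical neutral amino acid transporter *Slc6a19* was called higher (0.46 with all libraries).

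The 3 genes called lower act below the ketoacid dehydrogenase. *Acat1*, the mitochondrial thiolase that acts at the end of isoleucine breakdown and in ketone body metabolism, had 43.4, 51.9 and 66.9 FPKM in WT and 29.1, 31.5 and 35.0 FPKM in *Esrra*-/-. The genotypes did not overlap, and the log2 fold change was −0.74 (standard error 0.18, unadjusted p = 0.00415, limma adjusted p = 0.289). *Mcee*, methylmalonyl-CoA epimerase of the propionate pathway, had 17.2, 17.6 and 21.7 FPKM in WT and 11.4, 13.0 and 11.8 FPKM in *Esrra*-/-, again with no overlap, and a log2 fold change of −0.63 (unadjusted p = 0.00212, limma adjusted p = 0.238). Without WT replicate 3 the value of *Mcee* was −0.52, and in the 4 libraries with Y-linked transcripts −0.51, both short of the fold limit. *Oxct1*, which activates acetoacetate for use as fuel, had 27.2, 24.0 and 13.8 FPKM in WT and 10.1, 10.8 and 15.0 FPKM in *Esrra*-/-. Its log2 fold change was −0.81 (unadjusted p = 0.0201, limma adjusted p = 0.387), but WT replicate 3 lay below *Esrra*-/- replicate 3. The call of *Oxct1* was lost without WT replicate 1 (−0.62), WT replicate 2 (−0.71), *Esrra*-/- replicate 1 (−0.70) or *Esrra*-/- replicate 2 (−0.75).

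Other steps of the branches were not called. In the leucine branch, *Auh*, the hydratase after methylcrotonyl-CoA carboxylase, had a log2 fold change of −0.36 (95% interval −0.78 to 0.05). In the valine and isoleucine branches, *Echs1* had −0.35 and *Hsd17b10* had −0.31, and 0 of the 5 genes of this list was called in either direction. The carboxylase subunits *Pcca* (−0.13) and *Pccb* (−0.21) and the mutase *Mut* (0.10), which carry propionyl-CoA to succinyl-CoA around the step of *Mcee*, were not called. *Mmachc*, which processes cobalamin, the cofactor of the mutase, had −0.48 with an unadjusted p of 0.0207 (limma adjusted p = 0.387), short of the fold limit, and was called lower without *Esrra*-/- replicate 2 (−0.63).

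The E3 subunit and the sister complexes gave the closest comparison for the ketoacid dehydrogenase. *Dld*, whose product serves pyruvate, oxoglutarate and branched-chain ketoacid dehydrogenases alike, had 70.8, 63.2 and 75.5 FPKM in WT and 48.4, 46.0 and 52.8 FPKM in *Esrra*-/-. The genotypes did not overlap, and the log2 fold change of −0.51 (95% interval −0.82 to −0.19, unadjusted p = 0.00612, limma adjusted p = 0.304) was short of the fold limit. The 4 genes of the pyruvate dehydrogenase core, *Pdha1*, *Pdhb*, *Dlat* and *Pdhx*, were all called lower, from −0.60 to −0.91, each with no overlap between the genotypes. In oxoglutarate dehydrogenase, another sister complex, *Ogdh* (−0.10, 95% interval −0.71 to 0.51) and *Dlst* (−0.29, 95% interval −0.78 to 0.21) encode E1 and E2. Both genes overlapped between the genotypes and were not called. The corresponding members *Bckdha* (0.11) and *Dbt* (−0.19) were not called, and *Bckdhb* (−0.79) was.

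Ratios of pyruvate dehydrogenase genes to members, in pairs chosen after these differences had been seen, are given as a description with no test. *Pdha1* was at 4.87, 5.90 and 3.77 times *Bckdha* in WT and at 2.63, 2.62 and 2.55 times in *Esrra*-/-, and the genotypes did not overlap. *Dlat* was at 3.58, 3.86 and 4.55 times *Dbt* in WT and at 2.43 ± 0.350 times in *Esrra*-/-, and *Dld* was at 14.5 ± 1.15 times *Dbt* in WT and 11.7 ± 0.924 times in *Esrra*-/- (SD, n = 3 each), both without overlap. *Pdhb* to *Bckdhb* overlapped, at 18.6 ± 9.74 in WT and 19.8 ± 5.48 in *Esrra*-/- (SD, n = 3 each). *Pdk2* to *Bckdk* (2.17 ± 0.651 in WT, 2.12 ± 0.931 in *Esrra*-/-) and *Slc25a44* to *Bcat2* (1.38 ± 0.673 in WT, 1.38 ± 0.661 in *Esrra*-/-) overlapped as well. The mean difference of the ratio on the log2 scale was −0.87 for the E1 alpha genes, −0.72 for the E2 genes and 0.14 for the E1 beta genes. The 4 kinases of pyruvate dehydrogenase, sisters of *Bckdk*, had log2 fold changes of −0.11 for *Pdk1*, 0.02 for *Pdk2*, −0.29 for *Pdk3* and 0.43 for *Pdk4*, and none was called.

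Enzymes that share a cofactor or an electron acceptor with the members were mostly not called. *Lipt2*, which attaches the lipoate precursor to its first acceptor protein, was called lower at −0.91 (unadjusted p = 0.0124, limma adjusted p = 0.342), and *Gcsh*, that acceptor protein, had −0.21. *Hlcs*, which attaches biotin to carboxylases such as MCCC1, was below the level tested, with 0.576 to 0.800 FPKM in WT and 0.735 to 1.21 FPKM in *Esrra*-/-, and *Btd*, which recycles biotin, had a log2 fold change of 0.29 (95% interval −0.07 to 0.65). *Ivd* belongs to the acyl-CoA dehydrogenases, and none of the 9 tested on a list of further family members was called, nor were *Acad8* (0.04) and *Acadsb* (−0.05) of valine and isoleucine breakdown. Among the 9, *Gcdh* of lysine breakdown had −0.37 with an unadjusted p of 0.0340 (limma adjusted p = 0.422), and *Acad11* had 0.39. The electron transfer flavoprotein, which accepts electrons from IVD, had log2 fold changes of −0.02 for *Etfa* and −0.04 for *Etfb*, and *Etfdh*, the oxidoreductase that passes them on to ubiquinone, had −0.08, all with intervals that include 0.

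Set beside other mitochondrial lists, the members stood near the median of all genes. Calls of lower covered 45 of 73 oxidative phosphorylation genes (median −0.61) and 7 of 15 TCA cycle genes (median −0.56), where 3.28% of all genes were called lower. The acyl-CoA dehydrogenases (median 0.05, 0 of 9 called) and the electron transfer flavoprotein genes (median −0.04, 0 of 3 called) stood near the median of all genes like the members. Within each library, the log2 level of each member was set against its mean over the 6 libraries, and the median of these deviations over the 10 members was −0.15, 0.04 and 0.21 for the WT mice and −0.02, −0.05 and 0.01 for the *Esrra*-/- mice. The genotypes overlapped for the members and did not overlap for the oxidative phosphorylation genes, which had 0.11, 0.18 and 0.66 in WT and −0.42, −0.47 and −0.06 in *Esrra*-/-. Relative to the oxidative phosphorylation genes of the same library, the log2 difference of *Esrra*-/- over WT was positive for 9 of the 10 members, where it was positive for 95.8% of all genes, and ran from 0.33 for *Ivd* to 0.90 for *Bcat2*, with −0.16 for *Bckdhb*. On that relative scale *Esrra*-/- lay above WT with no overlap for 5 members, *Bckdha*, *Bckdk*, *Mccc1*, *Mccc2* and *Aldh6a1*, and for 56.4% of all genes, so the members' count was near the background.

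**Figure D4:**
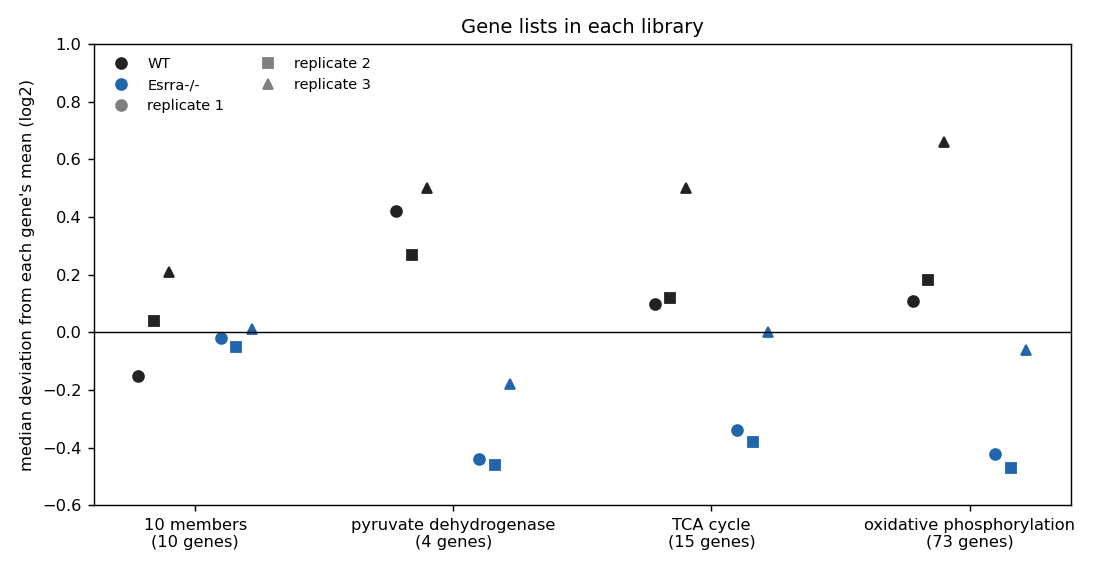
Median deviation on the log2 scale from each gene's mean over the 6 libraries, for 4 gene lists in 3 WT (black) and 3 *Esrra*-/- (blue) libraries, with marker shape for the replicate number. The 10 members lie between −0.15 and 0.21 with the genotypes overlapping. The pyruvate dehydrogenase, TCA cycle and oxidative phosphorylation genes separate by genotype.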

How the data were processed

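RNA-seq was run on 6 duodenal epithelium libraries, 3 WT and 3 *Esrra*-/-, grouped by title. The authors ran fastQC (0.11.3, per the submitters' processing notes) on the paired-end reads, used Kallisto with mm9 for quantification and DESeq2 for FPKM. The deposited FPKM values were used. The deposited table of their comparison (mean counts, fold changes and p-values) was not used.

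The log2(FPKM + 0.1) values of 10596 genes with a mean FPKM above 1 were fitted here with limma 3.58.1 (R 4.3.3; lmFit, eBayes with a trend, no covariate, Benjamini-Hochberg adjustment over all genes tested). This scale understates changes of low genes. The call (unadjusted p under 0.05, log2 fold change beyond 0.58) follows the study's thresholds. The fit was checked on simulated data. Single genes and the ratios between members had two-sided exact permutation tests. No count test was run on FPKM.

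FPKM values do not give the depth. The commonest ratio between low values (under 0.2 FPKM) put the other libraries at 0.827 to 1.02 times WT replicate 1. Precision is therefore given by the spread between mice.

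The members and lists were chosen with earlier results of these data known. The wider pathway is given by its counts and by its named genes, and 1 gene was left out of its lists and is not reported here. Named genes are the 10 members, *Esrra*, each called gene and the 2 genes of smallest p of each wider pathway list, the 2 of smallest p of each comparison list (not all are printed), and genes whose role pairs them with a member. *Pdhb*, *Pdhx*, *Etfa*, *Slc6a19*, *Ogdh*, *Dlst*, *Acad8*, *Acadsb* and *Bcat1* were named after their values were seen. Gene positions, exon overlaps and sequences came from mm9 (NCBIM37) with GENCODE M1; the annotation used by the authors is not given in the sources used here. Of the members, *Mccc1* and *Aldh6a1* share 198 and 99 exon bases with antisense genes, and of the other named genes *Esrra*, *Pdha1*, *Oxct1*, *Slc7a7*, *Pcca*, *Mut* and *Bcat1* share exon bases with a gene on the other strand. *Bckdk* shares a stretch of 154 bases at 91.6% identity with *D14Abb1e*.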

Additional observations from a re-analysis of the deposited data

How the results depend on the processing

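Values were recomputed with another pseudocount (1), with low genes kept or with every library required to pass 1 FPKM, with quantile or median-ratio scaling, with other limma variance models, with a replicate block, with a Y-linked covariate or the Y-positive libraries alone, with other call thresholds, and with each library left out. The count of members called lower was 1 in every fit of all libraries or of the Y-positive ones, ranged from 0 to 1 with 1 library left out, and it was 0 at an adjusted p under 0.05. The pathway genes called lower were 0 at an adjusted p under 0.05, 5 without a fold limit, and 2 to 3 with 1 library left out, among them *Mmachc* without *Esrra*-/- replicate 2 and *Slc7a5* without WT replicate 3, which were not called with all libraries. Pathway genes called higher ranged from 0 to 1, with *Slc6a19* called without *Esrra*-/- replicate 2 and *Slc7a7* without WT replicate 3. Over all genes, 348 were called lower and 143 higher, against 2 and 2 at an adjusted p under 0.05, 688 and 456 without a fold limit, and 528 and 277 with no filter. With 1 library left out they ranged from 252 to 533 lower and from 143 to 214 higher. Members that changed sign with 1 library left out were *Bcat2* (−0.05 to 0.70), *Bckdha* (−0.02 to 0.31), *Mccc1* (−0.22 to 0.46) and *Aldh6a1* (−0.08 to 0.14), none of them called. So did *Pcca* (−0.25 to 0.02, and 0.08 in the libraries with Y-linked transcripts) and *Mut* (−0.01 to 0.18). With pseudocounts of 0.01 and 0.5, chosen after seeing the data, the value of *Bckdhb* was −0.82 and −0.69. Same-numbered libraries had correlations of 0.012, 0.263 and 0.376 between their deviations, and differently numbered ones from −0.366 to 0.182. Whether the numbers mark pairs is not stated in the sources used here, and the main fit used no block. With the replicate block *Bckdhb* stayed at −0.79 (limma adjusted p = 0.195), and the counts of members and pathway genes called did not change. Over all genes the block gave 441 called lower and 192 higher. The cause of these changes was not tested. With 3 mice a group, the 95% intervals of *Bcat2*, *Ivd* and *Mccc1*, which were not called, reach past a fold limit, and that of *Bckdhb*, whose estimate is past the limit, also holds smaller changes.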
